A study of Mus musculus with 12 samples.

Results

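The neutrophil genes described here are 10 genes chosen by name as genes that mark or arm neutrophils: Retnlg, S100a8, S100a9, Csf3r, Cxcr2, Ly6g, Mmp8, Trem1, Il1r2 and Clec4d. They are 10 of 33200 gene identifiers in a table of RNA counts from inguinal white adipose tissue (iWAT), the subcutaneous fat depot of the mouse groin. Of the 10, 8 had enough counts to be tested among 16656 genes, and Ly6g and Trem1 did not. The iWAT came from mice with a global knockout of Nrep (KO), made with CRISPR/Cas, and from wild-type mice (WT), both of the C57BL/6 strain, on standard feed and 16 weeks old, with 3 libraries per genotype. The knockout is not limited to a cell type, and the sources used here state neither the edited site nor how many founder lines were bred. Liver samples of the same genotypes were not analysed here.

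Neutrophils are short-lived granulocytes made in the bone marrow under granulocyte colony-stimulating factor and drawn from the blood into tissue by chemokines of the CXC family. They carry ready-made granules with antimicrobial proteins and proteases, and in resting fat they are a small share of the immune cells, most of which are macrophages and lymphocytes. Several of their genes, S100a8, S100a9, Il1r2, Clec4d and Trem1 among them, can also be transcribed in monocytes, so that only part of the list is close to specific. Measured in bulk tissue RNA, fewer cells of a type and less RNA per cell cannot be told apart.

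Ly6g, the surface antigen by which mouse neutrophils are usually sorted, was near the floor in every library. It had 0, 0 and 2 counts in KO iWAT, against 4, 6 and 2 counts in WT iWAT, where 3 counts are taken as the floor. The name of the list therefore rests on the other members here, and their values describe a set of genes and not a counted population of neutrophils. Ly6g also has close relatives in its gene family, and the sources used here do not say how shared reads were assigned.

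In short, all 8 tested genes had lower levels in KO iWAT, and 1 of them, Retnlg, fell by the test used. The count is 1 of 8, where 0.162% of the 16656 tested genes were called lower in KO. The median log2 fold change of the 8 was −2.75, against −0.06 over all tested genes. All 8 had a negative log2 fold change, as did 55.8% of tested genes, and all 8 had one of −1 or lower, as did 3.18%. Of the 8, Retnlg, Mmp8 and Clec4d reached the minimum level for testing in fewer KO than WT libraries. Their entry into the test leaned on WT, so their direction is not independent of that minimum. Libraries of 1 genotype differed widely: WT replicates 1 and 2 were high for most of these genes, and WT replicate 3 was close to the KO libraries.

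The libraries held 17970451 to 20369345 counts, so that 1 count was 0.0466 to 0.0573 CPM, the counts of a gene per 1000000 counts. Nrep itself had 2, 2 and 5 counts in KO iWAT and 1404, 1640 and 1300 counts in WT iWAT. Levels are given as CPM scaled with TMM factors, for replicates 1, 2 and 3 in that order. On the first principal component of all genes (59.8% of the variance), KO replicate 2 lay at −4.16, apart from the other KO libraries at −54.2 and −77.1, and WT replicate 3 lay at 29.0, against 47.7 and 58.8 in the other WT libraries. The test called 171 of all genes, 144 higher (0.865%) and 27 lower in KO.

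**Figure D1:**
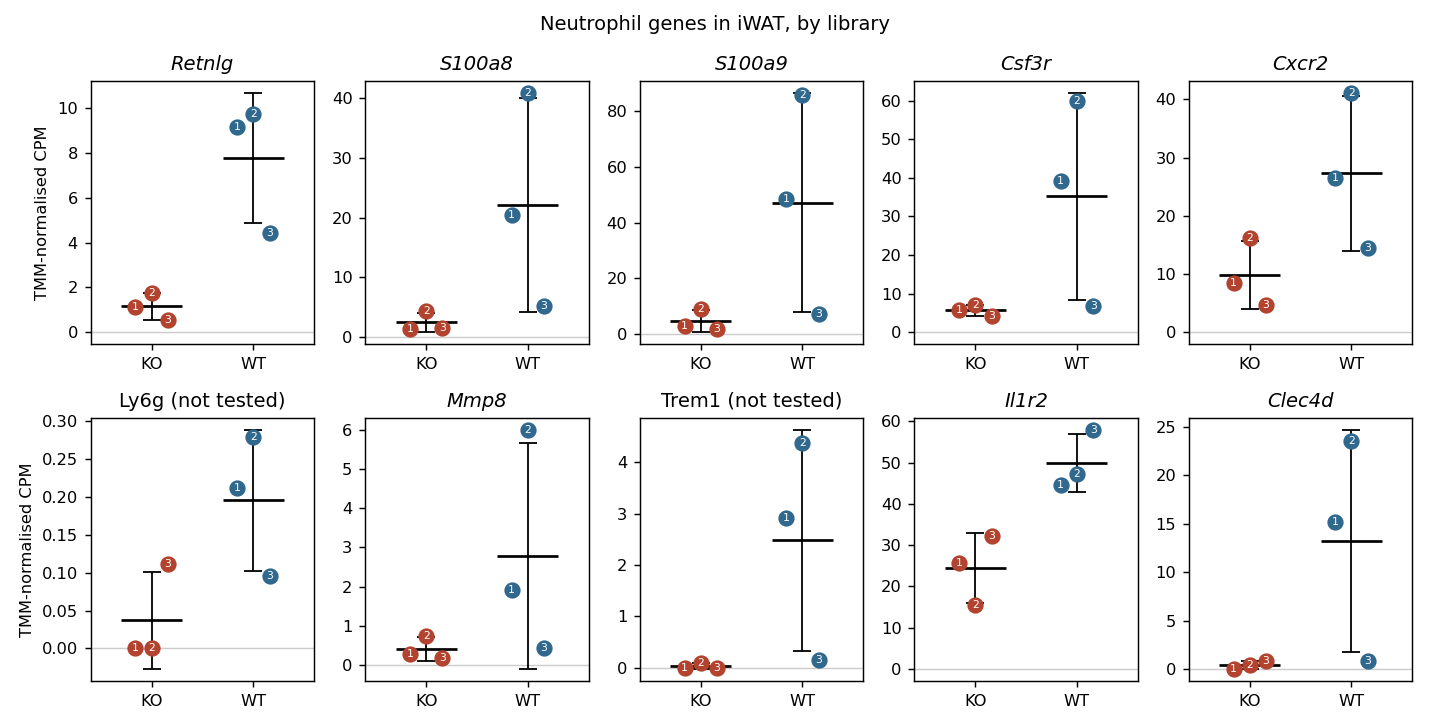
Each panel plots 1 of the 10 neutrophil genes as TMM-normalised CPM (linear axis), with KO libraries on the left and WT libraries on the right, the points labelled by replicate number, and the mean with its SD. WT replicate 3 is the lowest WT library for 9 of the 10 genes, with Il1r2 as the exception, and Ly6g and Trem1 are at or near 0 in KO.

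The promoters of these genes were also examined, and neither of the motifs searched for was present in all of them. RefSeq entries (GRCm38.p6) matched 10 of 10 genes, and the 250 bases before each annotated start were searched on both strands for the letters TTNNGCAA, a C/EBP-type motif, and GAGGAA, a PU.1-type motif. C/EBP factors and PU.1 are transcription factors of the myeloid lineage. The C/EBP-type letters were present for 4 of 10 genes, against 9.56% of 32851 promoters of the same length. The PU.1-type letters were present for 7 of 10 genes, against 23.3% of promoters, and both were present for 2 of 10, against 2.07%. Such a match describes the letters and is not a measured binding site.

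Shown are the windows of the calprotectin pair, of 2 further granule or secreted products, and of Il1r2, whose pattern over the libraries was unlike theirs. Capitals mark the matches, and each window reads 5′ to 3′ toward the start on the gene's own strand. They lie at chr3:90668821-90669070 on the plus strand for S100a8, chr3:90695722-90695971 on the minus strand for S100a9, chr16:48872358-48872607 on the plus strand for Retnlg, chr9:7558179-7558428 on the plus strand for Mmp8, and chr1:40085843-40086092 on the plus strand for Il1r2.
S100a8: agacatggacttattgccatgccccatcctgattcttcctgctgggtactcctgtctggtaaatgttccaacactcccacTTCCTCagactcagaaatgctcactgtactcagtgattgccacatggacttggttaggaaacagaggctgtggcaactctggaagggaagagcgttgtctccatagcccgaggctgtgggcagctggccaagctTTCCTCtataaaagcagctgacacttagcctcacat
S100a9: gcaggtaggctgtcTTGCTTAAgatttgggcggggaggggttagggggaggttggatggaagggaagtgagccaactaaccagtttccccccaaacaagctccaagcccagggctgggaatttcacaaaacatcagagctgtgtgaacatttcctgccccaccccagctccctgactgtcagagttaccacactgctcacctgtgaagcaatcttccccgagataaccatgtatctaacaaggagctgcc
Retnlg: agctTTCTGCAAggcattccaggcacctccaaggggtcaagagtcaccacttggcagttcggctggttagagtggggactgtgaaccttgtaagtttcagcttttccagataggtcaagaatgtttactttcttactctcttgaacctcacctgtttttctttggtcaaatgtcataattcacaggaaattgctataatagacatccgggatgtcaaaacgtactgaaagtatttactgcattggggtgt
Mmp8: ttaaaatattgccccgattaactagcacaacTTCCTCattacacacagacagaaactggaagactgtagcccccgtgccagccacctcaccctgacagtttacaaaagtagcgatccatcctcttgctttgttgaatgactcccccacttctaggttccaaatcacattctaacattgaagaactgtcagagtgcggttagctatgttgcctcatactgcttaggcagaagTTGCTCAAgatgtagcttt
Il1r2: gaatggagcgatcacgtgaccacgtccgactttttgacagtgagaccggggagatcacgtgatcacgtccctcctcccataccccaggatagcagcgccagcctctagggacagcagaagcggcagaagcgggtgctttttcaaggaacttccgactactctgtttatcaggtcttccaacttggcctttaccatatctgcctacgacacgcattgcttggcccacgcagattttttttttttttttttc

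The S100a8 window held PU.1-type letters at 170 and 36 bases before the start, the nearer one directly before a TATAAA run. The S100a9 window held C/EBP-type letters at 236 bases, and the Retnlg window held them at 246 bases. The Mmp8 window held both kinds, C/EBP-type at 19 bases and PU.1-type at 219 bases before the start. The Il1r2 window held neither, which says only that these letters are not in these 250 bases. Clec4d, whose pattern over the libraries differed more from the mean of the tested genes than that of Il1r2, is not shown. Its window held PU.1-type letters at 240 bases, and a link between letters and pattern was not tested. For Retnlg and Mmp8 the RefSeq start was not matched by a GENCODE M21 transcript, so their windows depend on the annotation used.

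Among the secreted and granule products, Retnlg (ENSMUSG00000022651), which encodes the mouse resistin-like protein gamma, was the gene that passed the test. It had 1.15, 1.77 and 0.555 CPM in KO iWAT, against 9.14, 9.73 and 4.44 CPM in WT iWAT. Every KO library was below every WT library, with WT replicate 3 at 47.0% of the mean of the other WT libraries. The means were 1.16 ± 0.608 CPM in KO and 7.77 ± 2.90 CPM in WT (SD, n = 3 each), a 6.63-fold lower level in KO. The log2 fold change was −2.73 ± 0.462 (SE), with an adjusted p of 0.0469 by edgeR's quasi-likelihood test.

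That call lay just inside the threshold of 0.05 and depended on the libraries. Without KO replicate 1 or 3, or without WT replicate 1 or 2, the adjusted p of Retnlg in edgeR was 0.224, 0.0868, 0.210 and 0.212, and over all alternative fits it ranged between 7.32e-07 in DESeq2 and 0.224. The log2 fold change of Retnlg stayed between −3.13 and −2.40 in all of them. Retnlg lies beside its relatives Retnla and Retnlb in the gene order, and reads shared between close relatives are uncertain.

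S100a8 and S100a9 encode the subunits of calprotectin, a calcium- and zinc-binding complex that fills the neutrophil cytosol and signals to other cells when released. S100a8 (ENSMUSG00000056054) had 1.43, 4.38 and 1.61 CPM in KO iWAT, against 20.5, 40.9 and 5.20 CPM in WT iWAT. The genotypes did not overlap, although KO replicate 2 came close to WT replicate 3. S100a8 averaged 2.47 ± 1.65 CPM in KO and 22.2 ± 17.9 CPM in WT (SD, n = 3 each), with a log2 fold change of −3.15 ± 0.762 (SE) and an adjusted p of 0.0759 in edgeR, which did not pass.

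S100a9 (ENSMUSG00000056071) had 3.09, 9.10 and 1.66 CPM in KO iWAT, against 48.4, 86.0 and 7.25 CPM in WT iWAT. The genotypes overlapped, because KO replicate 2 was above WT replicate 3. Its means were 4.62 ± 3.95 CPM in KO and 47.2 ± 39.4 CPM in WT (SD, n = 3 each), with a log2 fold change of −3.34 ± 0.917 (SE) and an adjusted p of 0.0954 in edgeR. WT replicate 3 had 10.8% of the mean S100a9 level of the other WT libraries.

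The S100 pair kept a similar proportion in most libraries while its level varied. The count of S100a9 over that of S100a8 was 2.16, 2.08 and 1.03 in KO iWAT and 2.37, 2.10 and 1.39 in WT iWAT. The ratio was lowest in the third library of each genotype, which was also a low library for both genes. S100a8 and S100a9 are neighbours on the chromosome, and their profiles over the 6 libraries were the closest among all pairs of the 8 genes, with a root-mean-square difference of 0.425 in centred log2 CPM.

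Mmp8 (ENSMUSG00000005800), the neutrophil collagenase stored in granules, was the lowest of the tested genes. It had 0.286, 0.738 and 0.166 CPM in KO iWAT, against 1.91, 6.01 and 0.429 CPM in WT iWAT. These are 5, 15 and 3 counts in KO and 36, 129 and 9 counts in WT, and KO replicate 2 was above WT replicate 3. The log2 fold change was −2.77 ± 0.956 (SE), with an adjusted p of 0.148 in edgeR. Mmp8 reached the CPM minimum of the filter (0.507) in 1 KO and 2 WT libraries.

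Among the receptors, Csf3r (ENSMUSG00000028859) binds granulocyte colony-stimulating factor, which drives the making of neutrophils. It had 5.67, 7.03 and 4.33 CPM in KO iWAT, against 39.2, 59.8 and 6.73 CPM in WT iWAT. WT replicate 3 lay inside the KO range, at 13.6% of the mean of the other WT libraries, so the genotypes overlapped. Csf3r averaged 5.68 ± 1.35 CPM in KO and 35.2 ± 26.8 CPM in WT (SD, n = 3 each), with a log2 fold change of −2.63 ± 0.685 (SE) and an adjusted p of 0.0868 in edgeR.

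Cxcr2 (ENSMUSG00000026180) is the receptor for Cxcl1 and related chemokines, through which neutrophils leave the marrow and enter tissue. It had 8.48, 16.1 and 4.72 CPM in KO iWAT, against 26.4, 41.1 and 14.5 CPM in WT iWAT. KO replicate 2 was above WT replicate 3, and the log2 fold change was −1.48 ± 0.497 (SE), with an adjusted p of 0.141 in edgeR. Cxcr1, the related receptor beside it on the chromosome, had at most 2 counts in any library and was not tested.

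The pair of receptors did not keep 1 proportion. The count of Cxcr2 over that of Csf3r was 1.49, 2.29 and 1.09 in KO iWAT and 0.674, 0.687 and 2.15 in WT iWAT. WT replicates 1 and 2 held more counts of Csf3r than of Cxcr2, and WT replicate 3 and all KO libraries held more counts of Cxcr2. The 6 tested B cell markers summed to 525, 1178 and 265 CPM in KO iWAT and 1145, 1114 and 1005 CPM in WT iWAT, with KO replicate 2 highest as for Cxcr2 within KO, and their part in the Cxcr2 values was not tested.

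Il1r2 (ENSMUSG00000026073), the decoy receptor that binds interleukin-1 without signalling, stood apart from the other genes in its pattern. It had 25.6, 15.5 and 32.2 CPM in KO iWAT, against 44.6, 47.4 and 58.0 CPM in WT iWAT. The genotypes did not overlap, WT replicate 3 was the highest WT library, and KO replicate 2 was the lowest KO library at 53.7% of the mean of the other KO libraries. Il1r2 averaged 24.5 ± 8.41 CPM in KO and 50.0 ± 7.07 CPM in WT (SD, n = 3 each), with a log2 fold change of −1.03 ± 0.254 (SE) and an adjusted p of 0.0785 in edgeR.

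Il1r1, the signalling receptor encoded next to Il1r2, had 49.1, 43.7 and 46.9 CPM in KO iWAT, against 72.0, 81.8 and 62.4 CPM in WT iWAT. The count of Il1r2 over that of Il1r1 was 0.522, 0.355 and 0.687 in KO iWAT and 0.619, 0.579 and 0.930 in WT iWAT. In counts, which are not corrected for exon length, the decoy was below the signalling receptor in every library. The KO and WT ranges of the ratio overlapped.

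Among the innate immune receptors, Clec4d (ENSMUSG00000030144), a C-type lectin that senses microbial glycolipids, had the largest difference of the tested neutrophil genes. It had 0.0573, 0.443 and 0.888 CPM in KO iWAT, against 15.2, 23.6 and 0.906 CPM in WT iWAT. The genotypes did not overlap, but the margin between KO replicate 3 (16 counts) and WT replicate 3 (19 counts) was 3 counts. The log2 fold change was −4.81 ± 1.18 (SE), 28.1-fold lower in KO, with an adjusted p of 0.0783 in edgeR. WT replicate 3 had 4.68% of the mean of the other WT libraries, the lowest such share of the 8 tested genes.

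Trem1 (ENSMUSG00000042265), an activating receptor that amplifies inflammatory signals through Tyrobp, was too low to test. It had 0, 2 and 0 counts in KO iWAT, against 55, 94 and 3 counts in WT iWAT. Nearly all of its counts came from WT replicates 1 and 2. The KO-to-WT ratio of library-scaled counts was 0.0144 (95% exact counting interval 0.00173 to 0.0531), which covers counting error only and not the spread between mice. The same ratio for Ly6g (ENSMUSG00000022582) was 0.183 (0.0199 to 0.822).

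Per kilobase of exon, the order of the genes differed between genotypes. In KO iWAT, Il1r2 had the highest mean at 12.8 CPM per kilobase, followed by S100a9 at 8.85, S100a8 at 3.56 and Cxcr2 at 3.21. In WT iWAT, S100a9 had the highest mean at 90.5 CPM per kilobase, followed by S100a8 at 32.0, Il1r2 at 26.2 and Retnlg at 13.1. The spread between WT libraries of S100a9 and S100a8 covers the gap to their neighbours in that order, while Mmp8, at 0.164 CPM per kilobase in KO and 1.15 in WT, was the lowest tested gene in both genotypes.

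**Figure D2:**
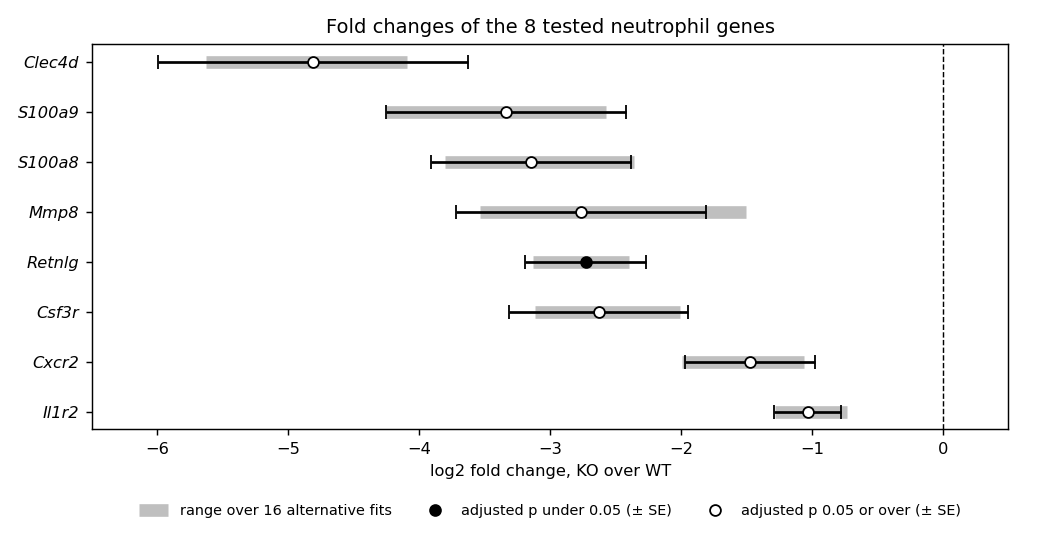
The log2 fold change of KO over WT is plotted with its SE for the 8 tested neutrophil genes, over a grey band that spans the values of 16 alternative fits. All 8 lie below 0, between −4.81 for Clec4d and −1.03 for Il1r2, with Retnlg at −2.73 as the gene past the adjusted threshold of 0.05.

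Seen together, the genes depended on which libraries entered. KO replicate 2 was the highest KO library for 6 of the 8 tested genes, and WT replicate 3 was the lowest WT library for 7 of 8. The summed level of all 10 genes was 45.8, 55.2 and 46.3 CPM in KO iWAT, against 208, 319 and 97.6 CPM in WT iWAT. Every KO sum was below every WT sum, and the WT sums spanned a wider range than the gap between genotypes. That separation rests on Il1r2: without it, a sum taken after the values were seen, the other 9 genes summed to 20.2, 39.7 and 14.0 CPM in KO iWAT, against 164, 272 and 39.6 CPM in WT iWAT, so that KO replicate 2 and WT replicate 3 met. Gene by gene, 4 of the 8 had no overlap with KO lower (Retnlg, S100a8, Il1r2 and Clec4d), as had 13.1% of all tested genes.

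Other fits of the same counts called other numbers of these genes. At an adjusted p of 0.10, edgeR called 6 of 8 lower, against 2.75% of tested genes. DESeq2 called 8 of 8 lower at 0.05, against 3.60% of genes, and limma-voom called 0 of 8, against 0.00600%, with 5 of 8 at an unadjusted p under 0.05. Without a filter on low counts, edgeR called 2 of 8 lower, against 1.34% of genes. At an unadjusted p of 0.05 in edgeR, 8 of 8 were lower, against 9.79% of genes. Without WT replicate 3, edgeR called 5 of 8 lower (Retnlg, S100a8, S100a9, Csf3r and Clec4d), against 1.38% of genes. Without KO replicate 2 it called 3 of 8 (Retnlg, Cxcr2 and Il1r2), against 10.9% of genes, and without any 1 of the other 4 libraries it called 0 of 8, with 6 to 8 of 8 at an unadjusted p under 0.05. These shares of all tested genes also stand beside the list counts of lower genes given below.

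**Figure D3:**
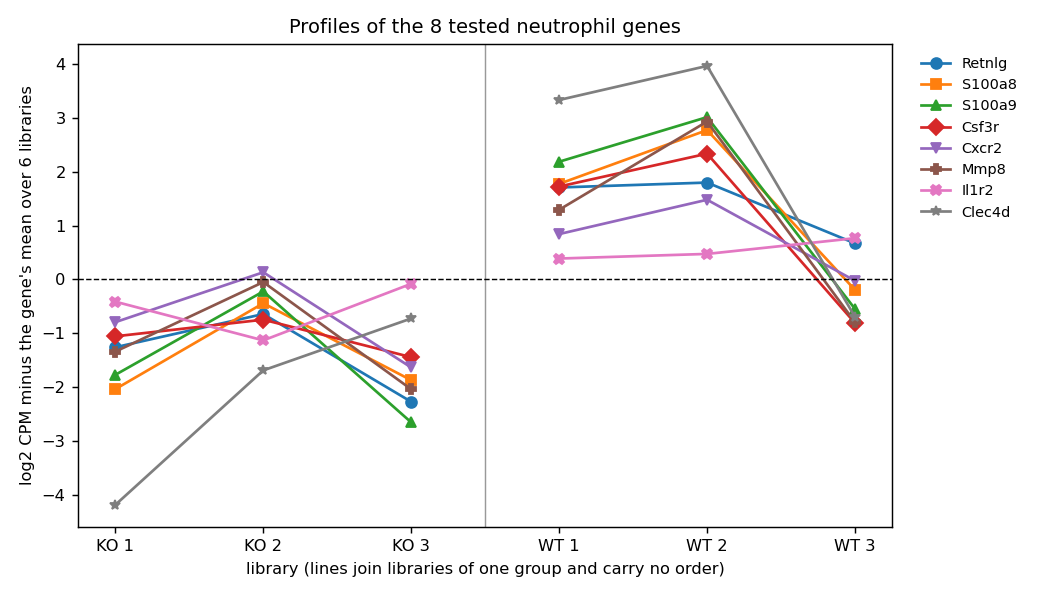
Log2 CPM of each tested neutrophil gene is plotted for KO replicates 1 to 3 and then WT replicates 1 to 3, centred on the gene's mean over the 6 libraries. Most lines peak at WT replicate 2 and drop at WT replicate 3, while Il1r2 is highest at WT replicate 3.

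Likeness of profile was measured as the root-mean-square difference in centred log2 CPM. From the mean profile of the 8 genes, S100a8 differed least, at 0.284, followed by Csf3r at 0.346 and Mmp8 at 0.483. Il1r2 at 1.29 and Clec4d at 1.54 differed most. Among 13317 other genes with a mean of at least 2 CPM, the 6 nearest to that mean profile were Cd5l at 0.242, Padi4 at 0.278, Gm49339 at 0.299, Clec4n at 0.324, B430306N03Rik at 0.345 and Sirpb1c at 0.394.

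Cd5l, a secreted protein of tissue macrophages, had 6.36, 12.5 and 5.55 CPM in KO iWAT, against 59.0, 130.7 and 12.8 CPM in WT iWAT. The nearest profile was thus that of a macrophage gene. Padi4, the enzyme that citrullinates histones in neutrophils, had 0.573, 1.08 and 0.888 CPM in KO iWAT, against 6.75, 7.78 and 1.86 CPM in WT iWAT. Clec4n, which encodes Dectin-2 and lies near Clec4d, had a log2 fold change of −2.11 and did not pass.

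Further neutrophil genes outside the 10 spanned a wide range of differences. Of 12 tested other neutrophil markers, edgeR called 0 (7 lower at an unadjusted p under 0.05) and DESeq2 called 5 lower (3.60% of all tested genes were). Their median log2 fold change was −0.99, and 4 had KO below WT in every library, as had 13.1% of all tested genes. Among the abundant ones, Lrg1, a secreted glycoprotein, had a log2 fold change of −0.55, and Hcar2, a receptor for hydroxybutyrate and nicotinic acid, had one of −0.13. Which cells of the tissue held the RNA of Lrg1 and Hcar2 was not measured, so these values cannot be assigned to neutrophils. Slfn4, a Schlafen family gene picked after its values were seen, had 1.26, 1.48 and 1.11 CPM in KO iWAT, against 93.3, 110 and 3.39 CPM in WT iWAT, with a log2 fold change of −5.74, larger in size than that of any of the 8 tested genes. Fpr2, a formyl peptide receptor picked likewise, had one of −4.38. Its counts were 4, 4 and 4 in KO iWAT and 92, 172 and 19 in WT iWAT, so it entered the test through WT alone. Without KO replicate 2, and likewise without WT replicate 3, edgeR called 5 of the 12 lower.

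Genes for granule proteins made by neutrophil precursors gave a median log2 fold change of −1.45 over 9 tested, with 0 called by edgeR (4 lower at an unadjusted p under 0.05) and 3 lower in DESeq2. Leaving out KO replicate 2, edgeR called 5 lower, and leaving out WT replicate 3, it called 2. Chil3, a chitinase-like protein shared with macrophages, had 0.859, 3.10 and 0.943 CPM in KO iWAT, against 23.2, 40.5 and 2.62 CPM in WT iWAT. Lcn2, the iron-carrier-binding lipocalin, had a log2 fold change of −1.98, and Prtn3, the protease proteinase 3, had one of −0.31. Chil3 and Lcn2 thus showed the low WT replicate 3 of the S100 pair, and Prtn3 was highest in that library among WT.

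Of the chemokines and growth factors that attract or maintain neutrophils, 4 of 10 could be tested, and edgeR called 0 (2 lower at an unadjusted p under 0.05) against 2 lower in DESeq2, and it called 1 lower without KO replicate 2 or without WT replicate 3. Cxcl1, a ligand of Cxcr2, had 0.229, 0.393 and 0.777 CPM in KO iWAT, against 10.6, 12.0 and 1.29 CPM in WT iWAT. The counts of Cxcl1 were 4, 8 and 14 in KO iWAT and 199, 257 and 27 in WT iWAT. The genotypes did not overlap, with a log2 fold change of −4.07 ± 0.868 (SE) and an adjusted p of 0.0630 in edgeR. Cxcr4, the receptor that holds neutrophils in the marrow and is shared with lymphocytes, had a log2 fold change of −1.32. Its ligand Cxcl12 had one of −0.05, with 365, 402 and 350.002 CPM in KO iWAT and 364, 354 and 442 CPM in WT iWAT.

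Of 12 tested genes for leukocyte rolling and adhesion, 1 fell, as did 0.162% of all tested genes. Sele encodes E-selectin, which activated endothelium displays to catch neutrophils. Sele had 0.458, 0.295 and 0.222 CPM in KO iWAT, against 1.65, 2.05 and 1.48 CPM in WT iWAT, with no overlap and with WT replicate 3 near the other WT libraries. The counts of Sele were 8, 6 and 4 in KO iWAT and 31, 44 and 31 in WT iWAT. Every KO library was under the filter's CPM minimum of 0.507, so Sele entered the test through WT alone. Its log2 fold change was −2.39 ± 0.380 (SE), with an adjusted p of 0.0438 in edgeR. Without KO replicate 1 or 3, or without WT replicate 1 or 2, that adjusted p was 0.186, 0.0958, 0.202 and 0.212, so the call ended there. In this list edgeR called 10 of 12 lower without KO replicate 2, and 2 without WT replicate 3. The leukocyte integrin subunit Itgb2 had a log2 fold change of −1.04, the endothelial ligand Vcam1 had −0.57, and the endothelial gene Pecam1 had 0.02. Pecam1 does not stand for the endothelial markers, whose median over 6 tested was 0.36. Of these 6, 3 had KO above WT in every library, as had 15.2% of all tested genes. For them edgeR called 0 (3 higher at an unadjusted p under 0.05) and DESeq2 called 2 higher.

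The subunits of the NADPH oxidase, with which phagocytes make superoxide, had a median log2 fold change of −0.85 over 6 tested. Of these, 4 had KO below WT in every library, as had 13.1% of all tested genes. In this list edgeR called 0 (5 lower at an unadjusted p under 0.05) and DESeq2 called 4 lower, while edgeR without KO replicate 2 called 6. Rac2, the most abundant subunit and one shared with lymphocytes, had 137, 287 and 91.9 CPM in KO iWAT, against 248, 264 and 228 CPM in WT iWAT, so that KO replicate 2 was above every WT library. The catalytic subunit Cybb had 76.7, 110 and 59.6 CPM in KO iWAT, against 173, 200 and 114 CPM in WT iWAT. These genes are shared with macrophages.

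The interleukin-1 family and its receptors had a median log2 fold change of −1.04 over 11 tested, with 0 called by edgeR (11 lower at an unadjusted p under 0.05) and 8 lower in DESeq2. The edgeR count was 4 lower without KO replicate 2 and 6 without WT replicate 3. Il1b, picked here after its values were seen, had 1.15, 0.885 and 0.444 CPM in KO iWAT, against 28.0, 27.0 and 1.91 CPM in WT iWAT. The antagonist Il1rn, picked likewise, had more counts than Il1b in every library, without correction for exon length. The count ratio of Il1rn over Il1b was 2.15, 4.11 and 3.13 in KO iWAT and 1.01, 1.57 and 2.05 in WT iWAT. Il33 had a log2 fold change of −0.65 and the adaptor Myd88 one of −0.73.

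Receptors related to Trem1 and Clec4d, with the adaptors and kinase they signal through, had a median log2 fold change of −1.34 over 9 tested, with 0 called by edgeR (8 lower at an unadjusted p under 0.05) and 6 lower in DESeq2. Without KO replicate 2, and likewise without WT replicate 3, edgeR called 4 lower. Fcer1g, the adaptor of the C-type lectins, had 28.2, 32.7 and 28.4 CPM in KO iWAT, against 76.9, 94.7 and 38.6 CPM in WT iWAT. Tyrobp, the adaptor of Trem1, had a log2 fold change of −0.99, and the kinase Syk had one of −0.72. Clec4e, the partner lectin of Clec4d and picked after its values were seen, had one of −2.89.

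The receptors and relatives of calprotectin moved in both directions. Of the receptors, Tlr4 had a log2 fold change of −0.59 and the scavenger receptor Cd36, which is abundant in adipocytes, had one of 0.77, and the median over 6 tested was −0.15. Of 7 tested S100 relatives, whose median was −0.09, S100a10 had −0.45, S100a11 had 0.02 and S100a1 had 0.74. S100a4, picked after its values were seen, had 29.4, 45.1 and 22.8 CPM in KO iWAT, against 95.5, 139 and 50.5 CPM in WT iWAT, with WT replicate 3 the lowest WT library as for S100a8. In each of these lists edgeR called 0, with 3 lower and 1 higher for the receptors and 2 lower and 1 higher for the relatives at an unadjusted p under 0.05, and DESeq2 called 1 receptor lower and 1 higher, and 2 relatives lower and 1 higher. Without KO replicate 2 edgeR called 1 receptor lower and 2 higher, and 1 relative lower and 1 higher, and without WT replicate 3 it called 2 relatives lower.

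**Figure D4:**
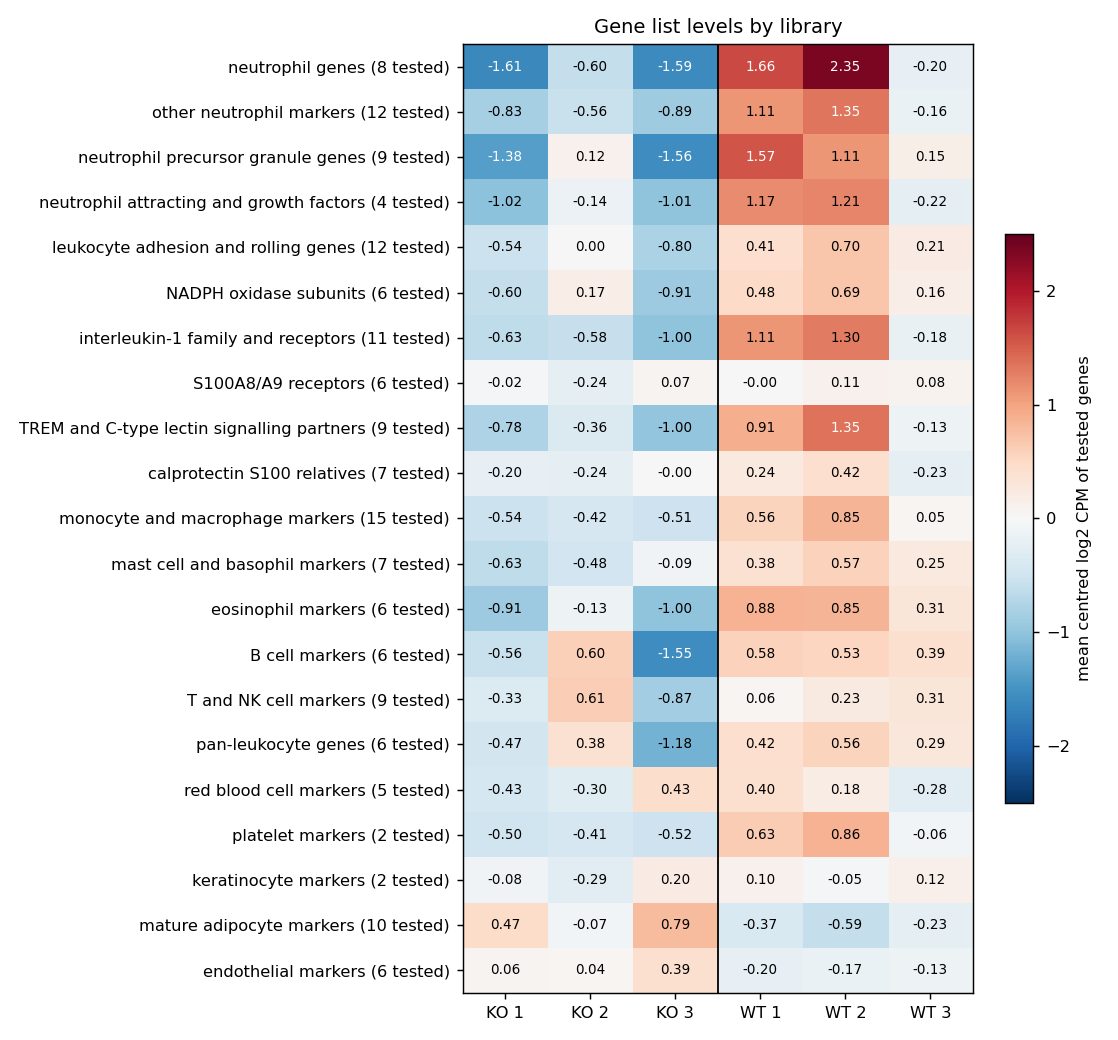
Rows are gene lists and columns the 3 KO and then the 3 WT libraries, and each cell gives the mean centred log2 CPM of the tested genes of the list. The neutrophil genes run from −1.61 in KO replicate 1 to 2.35 in WT replicate 2, and WT replicate 3 is at −0.20, while B cell markers have their highest value, 0.60, in KO replicate 2.

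Markers of other cells in the tissue moved with these genes to different degrees, and their part in the neutrophil values was not tested. Of 15 tested monocyte and macrophage markers, 1 fell (0.162% of all tested genes did) and 11 had KO below WT in every library (13.1% of all tested genes did). DESeq2 called 8 of them lower, 12 were lower at an unadjusted p under 0.05 in edgeR, and edgeR called 7 lower without KO replicate 2 and 5 without WT replicate 3. These 15 markers had a median log2 fold change of −0.78, with sums of 2260 to 2558 CPM in KO iWAT and 3178 to 4733 CPM in WT iWAT. The gene that fell was Ccr2, the chemokine receptor of inflammatory monocytes, with 32.6, 26.9 and 21.5 CPM in KO iWAT, against 103, 104 and 64.7 CPM in WT iWAT (log2 fold change −1.75, adjusted p 0.0326 in edgeR). Csf1r, the receptor for macrophage growth factor, had a log2 fold change of −0.32.

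Some markers of other granulocytes passed the test. Of 6 tested eosinophil markers, Ear2, an eosinophil-associated ribonuclease, fell, with 13.7, 9.54 and 10.4 CPM in KO iWAT, against 23.2, 24.0 and 23.9 CPM in WT iWAT (log2 fold change −1.08, adjusted p 0.0409 in edgeR). Of 7 tested mast cell and basophil markers, the mast cell protease Mcpt4 (−0.97, adjusted p 0.0326 in edgeR) and the mast cell receptor Mrgprb1 (−1.41, adjusted p 0.0468) fell. DESeq2 called 4 eosinophil and 3 mast cell and basophil markers lower, and 4 and 6 were lower at an unadjusted p under 0.05 in edgeR. Without KO replicate 2, edgeR called 5 eosinophil markers, and without WT replicate 3 it called 2 eosinophil and 1 mast cell or basophil marker. In these lists, 4 of 6 eosinophil and 5 of 7 mast cell and basophil markers had KO below WT in every library (13.1% of all tested genes did). Among them and not past the test were Ccr3 (log2 fold change −2.08), Alox15 (−1.32), Cma1 (−0.77) and Cpa3 (−0.53). The stem cell factor receptor Kit, abundant in mast cells, had a log2 fold change of 0.14, and the levels of the eosinophil receptor Il5ra overlapped between genotypes. In Ear2, Mcpt4 and Mrgprb1 the WT libraries lay close together, without the low WT replicate 3 of the S100 pair. Ccr2, Ear2, Mcpt4 and Mrgprb1 did not pass in edgeR without KO replicate 1 or 3 or without WT replicate 1 or 2, where their adjusted p lay between 0.0857 and 0.214, and Mrgprb1 had 0.0569 without WT replicate 3.

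Lymphocyte and general leukocyte markers had no gene past the edgeR test, with 0 of 6 B cell, 0 of 9 T and NK cell and 1 of 6 pan-leukocyte genes at an unadjusted p under 0.05, and 0 in DESeq2. Those counts depended on KO replicate 2, without which edgeR called 6 of 6 B cell, 6 of 9 T and NK cell and 6 of 6 pan-leukocyte genes lower. The pan-leukocyte genes summed to 1346, 2421 and 827 CPM in KO iWAT and 2448, 2684 and 2288 CPM in WT iWAT, so that KO replicate 2 lay inside the WT range and the other KO libraries below it.

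Red blood cell markers, which follow the blood left in a tissue, summed to 931 to 1730 CPM in KO iWAT and 1003 to 1525 CPM in WT iWAT and overlapped. Platelet markers summed to 35.4 to 44.0 CPM in KO iWAT and 47.4 to 89.5 CPM in WT iWAT, and did not overlap. The median log2 fold change of the 2 tested was −0.95, with 0 called by edgeR (2 lower at an unadjusted p under 0.05) and 1 lower in DESeq2. Markers of mature adipocytes were present at high levels in all libraries, with sums of 13602 to 24124 CPM in KO iWAT and 9559 to 12661 CPM in WT iWAT. Of 10 tested, 8 had KO above WT in every library, as had 15.2% of all tested genes. The median log2 fold change was 0.81, edgeR called 0 (9 higher at an unadjusted p under 0.05, and 9 called without KO replicate 2) and DESeq2 called 9 higher. Skeletal muscle markers summed to 4116, 682 and 3836 CPM in KO iWAT against 17.7, 11.6 and 15.2 CPM in WT iWAT. Of the 11 tested, 9 were higher in KO by edgeR, as were 0.865% of all tested genes. Without KO replicate 1 or 3, or without WT replicate 1 or 2, edgeR called 0 of these 11, while with all libraries limma-voom called 1, DESeq2 called 11, and all 11 had an unadjusted p under 0.05 in edgeR. The share of all tested genes called higher is not given for DESeq2, limma-voom, the unadjusted p or the fits lacking 1 library. Those counts of higher genes, here and in the lists above, therefore describe their lists alone.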

How the data were processed

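RNA of iWAT from 3 KO and 3 WT mice was sequenced as stranded, poly(A)-selected libraries, per the labels' protocols. Values in the deposited table are estimated counts, neither scaled nor pooled, and between 9.53% and 11.1% of values per library were not whole numbers. Of 60 values of the 10 neutrophil genes, 1 was not whole. The sources used here do not state the quantifier, its strand setting or the build, so that reads of overlapping or antisense genes cannot be told apart. Counts were rounded to whole numbers. GENCODE M21 supplied exon lengths, and symbols for 26372 of 33200 identifiers (79.4%). Unnamed identifiers held 0.980% to 1.39% of counts and stayed in the tests.

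Genotypes were compared with the quasi-likelihood F-test of edgeR 4.0.16 in R 4.3.3, with TMM factors, filterByExpr on genotype, robust estimation and no covariate, two-sided, with Benjamini-Hochberg adjustment over 16656 genes at 0.05. Of the 8 tested neutrophil genes, 5 reached the filter's CPM minimum in all 6 libraries and 3 did not (Retnlg, Mmp8 and Clec4d). Retnlg reached it in 2 KO and 3 WT libraries, Mmp8 in 1 KO and 2 WT, and Clec4d in 1 KO and 3 WT. Their WT levels thus helped to carry them into the test. CPM are counts per 1000000 of the TMM-scaled library. The SE of a log2 fold change is the change over the square root of F. Profiles used log2 CPM with a prior of 0.5. DESeq2 1.42.0, limma-voom (limma 3.58.1), other factors, filters and thresholds, the replicate number as a block, and fits lacking 1 library were alternatives. A simulation with known changes, with the spread taken from the edgeR fit, was used to check the scripts. At an adjusted p of 0.05, 15 of 168 edgeR calls, 48 of 222 DESeq2 calls and 10 of 157 limma-voom calls in it were false. The spread came from edgeR alone, so these counts do not compare the tools on equal terms. Whether such shares of false calls hold for the DESeq2, edgeR and limma-voom counts given here was not tested.

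The 10 genes, all lists and the tests were chosen with earlier results of these data known. Named were the 10 genes, Nrep, from each list the genes past the test and up to 3 with the highest mean CPM, and the 6 genes of nearest profile, except 1 gene that is not reported here. Cxcr1, Il1b, Il1rn, Clec4e, Slfn4, Fpr2 and S100a4 fall outside this rule and were picked after their values were seen. Intervals and the floor of 3 counts (0.140 to 0.172 CPM) cover counting error only.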

Additional observations from a re-analysis of the deposited data

How the results depend on the processing

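The median log2 fold change of the neutrophil genes lay between −3.33 and −2.18 under every alternative, and none of 144 gene-by-alternative fold changes turned its sign (113 stayed on their side of the threshold, 7 lost it and 24 gained it). The alternatives with an adjusted p of 0.01 and 0.10 reuse the main fit. No sign could turn in them, here or among the other named genes below. The number of calls depended on the fit. Against 171 genes and 1 neutrophil gene, DESeq2 called 1823 and 8, limma-voom 16 and 0 (5 of 8 at an unadjusted p under 0.05), no filter beyond 1 count 1370 and 2, and a minimum mean of 1 CPM 126 and 0 (8 of 8 unadjusted). An adjusted p of 0.01 gave 1 and 0, and of 0.10 gave 1378 and 6. Leaving out single libraries gave 1 to 4221 genes and 0 to 5 neutrophil genes, highest without KO replicate 2 for all genes and without WT replicate 3 for the neutrophil genes. Scaling by library totals called 129 genes higher and 49 lower, where TMM called 144 and 27, and moved the median of all genes to −0.19. Upper quartile factors gave 249 genes (218 higher and 31 lower) and 1 neutrophil gene. The cause of these differences in calls was not tested. Over 41 other named genes, 602 of 738 fold changes stayed on their side of the threshold, 31 lost it, 94 gained it and 11 turned their sign. These 11 belong to 5 genes: Pecam1 at −0.11 and S100a11 at −0.12 with library totals, Cxcl12 at 0.0063 with upper quartile factors, and, when single libraries were left out, Hcar2 between −0.32 and 0.14, Prtn3 between −0.63 and 0.039, S100a11 between −0.15 and 0.19, Pecam1 between −0.031 and 0.088, and Cxcl12 between −0.11 and 0.054.

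The replicate number as a block gave 1225 genes and 6 neutrophil genes, all lower, against 2.61% of tested genes, with a median of −2.70. Same-numbered libraries deviated together with correlations of −0.00327, 0.183 and 0.0996, not all above 0.1, so that the numbers were not taken to pair the mice, and not every library correlated best with its own number. Values under 1 CPM rest on few counts.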
